A study of Rattus norvegicus with 22 samples.

Results

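Gene expression in embryo bone of gestational day 20 was compared with that in embryo liver of the same day, as measured in 4 arrays of each tissue. The 8 arrays were chosen by tissue and day from the 22 arrays of a study of Wistar rats. Pregnant rats had been dosed daily with vehicle, with the calcium sensitiser EMD 82571 (MSC1096199 in the series' own text) at 50 or 150 mg/kg/day, or with retinoic acid at 12 mg/kg/day. Dosing is given as gestational days 6 to 11 and 6 to 17 in one place and as days 6 to 17 in another. Each tissue had 1 array per treatment (control, EMD50, EMD150, retinoic acid), and bone and liver of the same treatment were compared as a pair. The retinoic acid samples carry the code RA56, which is not explained in the sources used here. Which bone or body region was taken, the sex of the embryos, and whether a sample holds 1 embryo, several embryos or a litter are not given either. P-values therefore measure the spread between these samples around their treatment pairs, which may be partly technical. In the text, the 4 values of a tissue always stand in the order control, EMD50, EMD150, retinoic acid, and are log2 levels from robust multi-array averaging (RMA).

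In the late rat fetus the skeleton is passing from cartilage to bone. Chondrocytes lay down a matrix of type II collagen and aggrecan, hypertrophic chondrocytes switch to type X collagen, osteoblasts deposit type I collagen and mineral-binding proteins, and osteoclasts resorb the calcified cartilage. The fetal liver secretes plasma proteins, with alpha-fetoprotein as the fetal counterpart of albumin, and is at the same time the main site of blood formation before the marrow takes over.

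The arrays of a tissue resembled each other more than those of the other tissue. Over all 15866 probe sets, Pearson's r lay between 0.954 and 0.984 for the 6 pairs of bone arrays, between 0.967 and 0.996 for the 6 pairs of liver arrays, and between 0.794 and 0.852 for the 16 pairs of 1 bone and 1 liver array. Probe sets share an array, so these correlations are a description. The EMD50 bone array stood apart in RNA quality measures. Its control probe sets at the 3′ and 5′ ends of Gapdh differed by 2.72 log2 units, against 0.77, 0.71 and 0.69 in the other bone arrays and 0.64 to 0.86 in the liver arrays. The same difference for beta-actin was also highest in it (0.98, against 0.35 to 0.73 in the other 7 arrays). The EMD150 liver array had the narrowest spread of values (SD 1.51, against 1.58 to 1.64 in the other liver arrays). Among the bone arrays the SD was 1.63, 1.65, 1.55 and 1.72, narrowest in EMD150 and widest in retinoic acid.

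In a limma fit blocked by treatment, 7013 probe sets (44.2%) were called at an adjusted p under 0.05. These were 3410 higher in bone (21.5%) and 3603 lower in bone (22.7%). With a change of at least 2-fold as well, 1334 (8.41%) were higher in bone and 763 (4.81%) lower. Without the EMD50 bone array, in a fit that then had no treatment block, 5472 probe sets were called against 7013. Of those 7013, 5113 (72.9%) were called again in the same direction. With all arrays kept and only the block left out, 5823 (83.0%) were. Without the EMD50 pair, in a blocked fit, 5525 (78.8%) were. Without the control pair 4616 probe sets were called, of which 1971 were lower in bone, and without the retinoic acid pair 2303 were lower in bone. With 1 probe set for each of 10411 genes, 46.2% of genes were called, 2396 (23%) higher in bone and 2416 (23.2%) lower. At 2-fold or more, 943 genes (9.06%) were higher in bone and 613 (5.89%) lower. The median difference over all genes was -0.048. The counts for gene groups below are to be read against these shares and this median. In tissue samples like these, fewer cells of a type and less RNA per cell cannot be told apart.

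**Figure D1:**
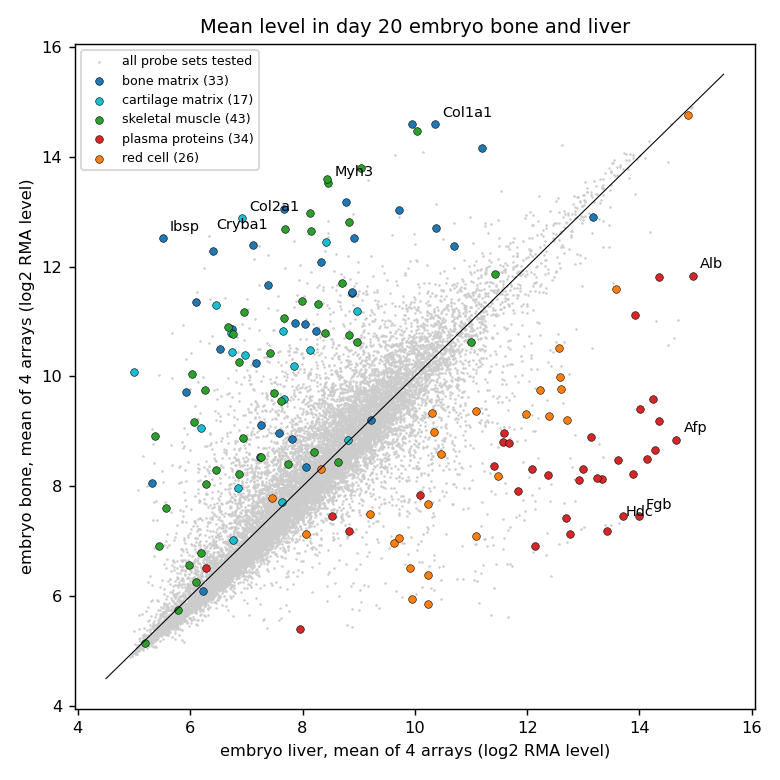
Mean log2 RMA level of each probe set in 4 embryo liver arrays (x axis) and 4 embryo bone arrays (y axis) of day 20. Grey points are all 15866 probe sets tested, coloured points are genes of 5 lists with the number measured, and the line marks equal levels. Most bone matrix genes lie above the line (29 of 33 called, median difference 3.07) and plasma protein genes below it (median -4.64).

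Genes of the bone matrix had the largest median difference of the 27 gene lists on the bone side. Of 33 measured genes, 29 were called higher in bone and none lower, with a median difference of 3.07. The list median was 11.26 to 11.89 over the bone arrays and 7.81 to 7.97 over the liver arrays. Without the EMD50 bone array, 29 were called and the median was 3.09. Ibsp, the gene of bone sialoprotein, a mineral-binding protein of osteoblasts, had levels of 12.92, 12.21, 12.18 and 12.75 in bone and 5.43, 5.57, 5.56 and 5.48 in liver. All 4 bone arrays were far above all 4 liver arrays, where the levels lay as low as in maternal liver of day 20 (5.39 to 5.78). The difference of 7.002 ± 0.18 (SE) was 128-fold and the largest of any gene higher in bone (limma adjusted p = 1.6e-06). Col1a1, a chain of type I collagen, the main protein of bone, had 14.60, 14.55, 14.56 and 14.68 in bone and 10.59, 10.005, 10.17 and 10.68 in liver. All bone values lay above all liver values (difference 4.24 ± 0.14 (SE), limma adjusted p = 2.2e-06). The bone values stood close to the highest value of their arrays (14.77 to 15.03), which limits what can be read from the size of this difference or from their likeness over the treatments.

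Further osteoblast products followed. Spp1, which encodes osteopontin, had 13.45, 12.32, 13.24 and 13.16 in bone against 7.53, 7.72, 7.84 and 7.57 in liver (difference 5.38, limma adjusted p = 4.5e-06). Bglap, which encodes osteocalcin, a late osteoblast product, had 11.30, 10.42, 9.34 and 10.94 against 6.42, 6.44, 6.85 and 6.41 (difference 3.97, limma adjusted p = 0.00015). The bone values of Bglap did not overlap with liver but spread over almost 2 log2 units, with control highest and EMD150 lowest. Phex, a peptidase gene of osteoblasts and osteocytes tied to phosphate handling, spread still more, with 7.68, 8.61, 6.30 and 9.68 in bone and 5.41, 5.46, 5.15 and 5.28 in liver (difference 2.74, limma adjusted p = 0.0027). Postn (periostin) and Lum (lumican), matrix proteins of the periosteum and connective tissue, differed by 5.89 and 5.27, and Cdh11, a cadherin of osteoblasts and mesenchyme, by 5.24. The 4 members of the list not called were Ankh, Fam20c, Fn1 and Sost. Fn1 (fibronectin), which liver also secretes into plasma, had 12.96, 12.87, 12.73 and 13.04 in bone and 13.37, 13.21, 12.78 and 13.35 in liver, and Sost, the sclerostin gene of mature osteocytes, had 6.04, 6.13, 5.92 and 6.29 and 6.04, 6.08, 6.68 and 6.09.

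Among the bone arrays, the retinoic acid array held the highest value for 23 of the 33 bone matrix genes (69.7%, against 30.3% over all genes). The EMD150 array held the lowest for 23 (69.7%, against 26.1%). Each treatment had 1 bone array, so these orders have no replicate check. The retinoic acid bone array also had the widest spread of values and the EMD150 one the narrowest, and the highest value lay in retinoic acid bone for 27 of 43 skeletal muscle genes (62.8%) as well. The part of the spread in these orders was not tested. Enzymes and chaperones that modify and cross-link collagen also differed, with 13 of 16 called higher in bone, none lower, and a median difference of 1.78. Lox, which starts collagen cross-links, had 11.11, 11.70, 10.42 and 11.64 in bone and 7.62, 7.24, 7.56 and 7.74 in liver (difference 3.67, limma adjusted p = 3.7e-05). Serpinh1, a collagen chaperone, differed by 3.18, and in each case all bone arrays lay above all liver arrays. A second Serpinh1 probe set was not called (0.21).

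**Figure D2:**
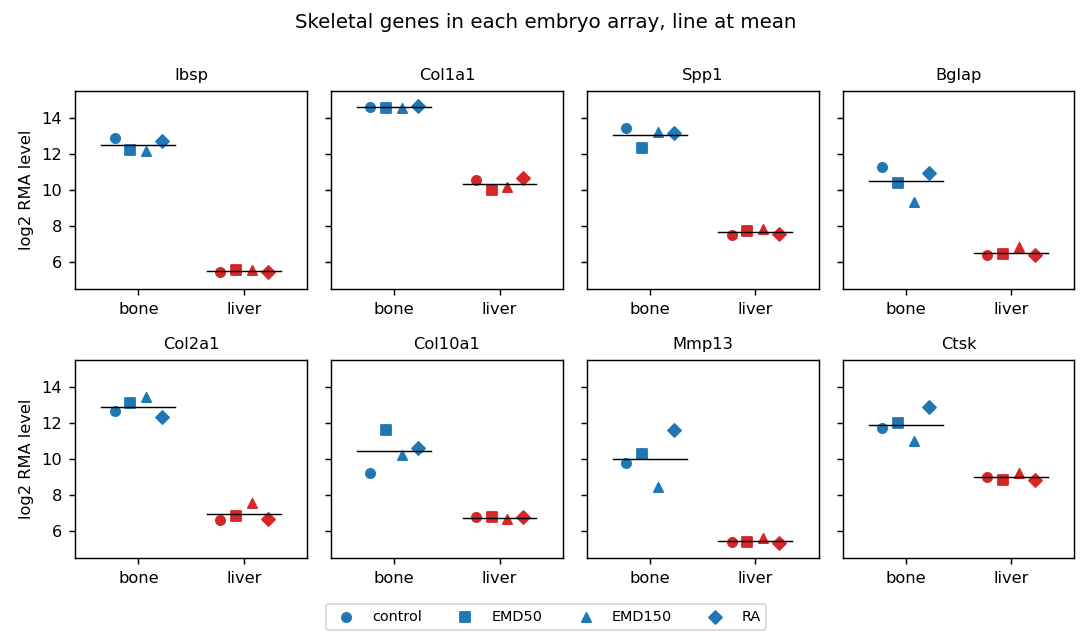
Log2 RMA level of 8 skeletal genes in the 4 bone arrays (blue) and 4 liver arrays (red), with a symbol for each treatment and a line at the mean of the tissue. Bglap ranged from 9.34 to 11.30 and Mmp13 from 8.46 to 11.60 over the bone arrays, all above liver, while Col1a1 (14.55 to 14.68) lay near the top of the scale.

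The promoters of 4 skeletal genes are shown as examples of bone matrix, protease and cartilage genes, chosen after their motif matches were seen. Each line gives the 250 bases before the RefSeq start in build GRCr8. The locations were chr14:5757243-5757492 (minus strand) for Ibsp, chr2:176137319-176137568 (minus strand) for Bglap, chr8:12782579-12782828 (plus strand) for Mmp13 and chr20:39737286-39737535 (plus strand) for Col10a1. Capitals mark matches on either strand to ACCACA, the core that RUNX factors recognise, to TATAAA, the TATA box, and to GTTAAT, one arm of the inverted repeat that HNF1 factors recognise.
Ibsp: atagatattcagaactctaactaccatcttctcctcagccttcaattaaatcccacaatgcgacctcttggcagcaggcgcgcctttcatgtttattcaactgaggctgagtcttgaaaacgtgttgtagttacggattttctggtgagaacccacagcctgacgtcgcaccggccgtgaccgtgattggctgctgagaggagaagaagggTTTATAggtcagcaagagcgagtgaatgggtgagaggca
Bglap: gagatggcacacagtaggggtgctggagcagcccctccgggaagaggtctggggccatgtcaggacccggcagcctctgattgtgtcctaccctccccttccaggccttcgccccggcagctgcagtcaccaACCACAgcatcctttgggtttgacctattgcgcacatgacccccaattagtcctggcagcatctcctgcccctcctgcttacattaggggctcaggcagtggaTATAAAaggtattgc
Mmp13: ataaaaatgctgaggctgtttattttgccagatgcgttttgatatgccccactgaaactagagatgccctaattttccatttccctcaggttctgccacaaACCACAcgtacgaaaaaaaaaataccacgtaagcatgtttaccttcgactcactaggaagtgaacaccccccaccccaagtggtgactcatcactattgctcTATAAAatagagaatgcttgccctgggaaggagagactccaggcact
Col10a1: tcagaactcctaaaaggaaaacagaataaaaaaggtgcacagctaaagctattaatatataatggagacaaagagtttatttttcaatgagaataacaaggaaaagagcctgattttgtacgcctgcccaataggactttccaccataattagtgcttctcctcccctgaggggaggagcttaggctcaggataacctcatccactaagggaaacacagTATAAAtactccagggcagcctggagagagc
Bglap had ACCACA starting 118 bases before the start and Mmp13 had it 149 bases before. TATAAA began 15 bases before the start in Bglap, 47 in Mmp13 and 31 in Col10a1, and lay on the other strand, 39 bases before, in Ibsp. The promoter of Spp1, not printed, had no match to the RUNX core. It held TATAAA 204 bases and the HNF1 arm 187 bases before the start. Over the list, ACCACA occurred in 5 of 22 bone matrix promoters (22.7%), against 14.1% of all 27457 promoters of the table. TATAAA occurred in 7 of the 22 (31.8%), against 13.1%. Neither share was particular to bone matrix. ACCACA occurred in 25% of coagulation and complement, 21.1% of red cell and 7.69% of cartilage matrix promoters. TATAAA occurred in 30.8% of plasma protein, 31.6% of skeletal muscle and 0% of coagulation and complement promoters. GTTAAT occurred in 1 (4.55%), against 6.46%. A match of 6 letters is a description of the sequence and not a shown site.

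Cartilage matrix genes were called higher in bone for 14 of 17 measured and lower for none, with a median difference of 2.86. Col2a1, the main collagen of cartilage, had 12.67, 13.14, 13.43 and 12.31 in bone and 6.60, 6.84, 7.58 and 6.68 in liver. EMD150 was the highest array in both tissues, and the groups did not overlap (difference 5.96 ± 0.14 (SE), 62.3-fold, limma adjusted p = 1.5e-06). A second Col2a1 probe set differed by only 0.55 (limma adjusted p = 0.024), so the size rests on the probe set. Col9a1, whose protein decorates type II fibrils, had 10.83, 11.82, 12.21 and 10.36 against 6.38, 6.49, 6.56 and 6.39 (difference 4.85, limma adjusted p = 1.9e-05). Its order over the bone arrays was that of Col2a1, with EMD150 and EMD50 above control and retinoic acid. Col11a1, a minor fibril collagen, had 9.76, 10.79, 9.69 and 10.11 against 4.97, 4.998, 5.004 and 5.01 (difference 5.09, limma adjusted p = 3.5e-06). Here too a second probe set differed by only 0.55 (limma adjusted p = 0.0081). Col10a1, the collagen of hypertrophic cartilage, had 9.25, 11.64, 10.22 and 10.64 against 6.77, 6.79, 6.69 and 6.76 (difference 3.68, limma adjusted p = 0.00015). Here the control array was the lowest of the bone arrays and EMD50 the highest. Fmod (fibromodulin), a collagen-binding proteoglycan, differed by 4.07 and Acan, the aggrecan gene, by 2.34. Over the list, the highest bone value lay in EMD50 for 8 of 17 genes (47.1%, against 23.8% over all genes). It lay in EMD150 for another 8 (47.1%, against 32.4%). Each treatment had 1 bone array, so this order has no replicate check. The EMD50 bone array had the large difference between Gapdh control probe sets (2.72), and the EMD150 one the narrowest spread among bone arrays (SD 1.55). The part of either in the order over bone arrays was not tested. In the liver arrays the highest value lay in EMD150 for 12 of the 17 (70.6%, against 29.2% over all genes). The EMD150 liver array had the narrowest spread of values, whose part in this order was not tested.

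Osteoclast genes gave a divided picture among those measured, with 6 of 13 called higher in bone, none lower, and a median difference of 0.28. The list held 25 genes, and Tnfrsf11a, Nfatc1, Dcstamp and Tcirg1 were among those not matched to a probe set, so the picture covers only part of it. Mmp9, a gelatinase of osteoclasts, had 11.01, 10.81, 9.66 and 11.16 in bone and 6.97, 7.13, 7.04 and 6.67 in liver (difference 3.71, limma adjusted p = 6.4e-05). Acp5, the tartrate-resistant acid phosphatase, had 12.33, 11.39, 11.19 and 12.15 against 9.08, 8.85, 8.75 and 8.68 (difference 2.93, limma adjusted p = 4.1e-05). Ctsk, the collagen-degrading cathepsin K, had 11.73, 11.999, 10.99 and 12.87 against 9.01, 8.85, 9.24 and 8.86 (difference 2.90, limma adjusted p = 0.00041). For all 3 the bone arrays lay above the liver arrays, with EMD150 the lowest of the bone arrays. Atp6v1b2, Src and Tnfrsf11b made up the called genes, with differences of 0.65, 0.49 and 0.45, although 2 of the other 3 Src probe sets were not called (-0.13 and -0.25). The cytokine Tnfsf11 (RANKL) and the receptor Csf1r, both needed to form osteoclasts, were not called (differences 0.075 and 0.13).

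Of 15 matrix proteases and inhibitors, 8 were called higher in bone and 5 lower (median difference 0.84, and 2.52 over the probe sets above the median level). Mmp13, the collagenase of hypertrophic cartilage and osteoblasts, had 9.78, 10.26, 8.46 and 11.60 in bone against 5.40, 5.40, 5.64 and 5.33 in liver. The retinoic acid array was highest and EMD150 lowest, and all lay above liver (difference 4.58 ± 0.47 (SE), limma adjusted p = 0.00028). Mmp2 and its activator Mmp14 differed by 3.61 and 2.61. A second Mmp2 probe set was called the other way, lower in bone by a small step (-0.38, limma adjusted p = 0.035). The 5 that were lower in bone were Mmp3, Mmp7, Mmp8, Mmp10 and Mmp12, with differences from -0.42 to -0.17, all under 2-fold.

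Transcription factors of the skeleton and its mesenchyme were called higher in bone for 12 of 21 and lower for 1, with a median difference of 0.73. Mef2c, which acts in hypertrophic cartilage and also in muscle, had 10.30, 9.97, 9.87 and 11.10 in bone and 5.88, 5.93, 5.82 and 6.10 in liver (difference 4.38, limma adjusted p = 5.3e-06). Sox4 had 10.76, 11.79, 10.35 and 10.78 against 8.71, 8.76, 8.70 and 8.81 and Prrx2, a factor of limb and face mesenchyme, 7.88, 8.94, 7.61 and 8.14 against 6.19, 6.28, 6.82 and 6.27. In both, EMD50 was the highest bone array, and of the other Sox4 probe sets one was called higher in bone (1.85) and one was not called (-0.15). The factors of head and limb patterning Dlx5, Msx1 and Twist1 differed by 1.14, 1.41 and 0.95. Hoxa10 was the gene lower in bone, by a small step (5.65, 5.59, 5.68 and 5.19 against 5.88, 5.80, 5.88 and 5.73, difference -0.30, limma adjusted p = 0.014). That call did not hold without the EMD50 bone array (limma adjusted p = 0.067) or without the intensity trend (limma adjusted p = 0.054).

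Growth plate signals were called higher in bone for 19 of 30 and lower for none (median difference 0.66). The ligands on this side included Tgfb3 (2.02), Bmp3 (1.53) and Bmp4 (0.91). Among receptors, Fgfr1 had 11.84, 11.13, 11.49 and 12.04 in bone and 8.35, 8.31, 8.57 and 8.20 in liver (difference 3.27, limma adjusted p = 2.1e-05), and Fgfr2 differed by 1.63. Of its other 4 probe sets, those with differences of 0.92 and 0.71 were also called, one was not called (0.17) and one was called lower in bone (-0.34, limma adjusted p = 0.027). Fgfr3, which restrains growth plate cartilage, was not called (0.082). The probe sets of Pth1r, the parathyroid hormone receptor of bone and cartilage, disagreed. The one with the highest mean was not called (-0.19), while the other was called higher in bone, with means of 10.09 in bone and 7.17 in liver (difference 2.92, limma adjusted p = 0.00013). The secreted Wnt antagonists Sfrp2, Sfrp1 and Frzb differed by 4.07, 2.17 and 1.85, and for Sfrp2 the bone values of 12.06, 12.30, 11.55 and 12.20 stood against 7.97, 7.90, 8.23 and 7.73 in liver.

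On the liver side, plasma protein genes stood farthest from bone. Of 34 measured, 33 were called lower in bone and none higher, with a median difference of -4.64. Without the EMD50 bone array, 33 were called and the median was -4.12. Fgb, a fibrinogen chain, had 8.91, 6.29, 6.20 and 8.44 in bone and 14.05, 14.06, 13.87 and 13.95 in liver. The difference of -6.53 ± 0.46 (SE) was the largest of any gene lower in bone (92.2-fold, limma adjusted p = 5.1e-05). It rests on 1 of 3 Fgb probe sets, since the others differed by -0.44 and -0.33. Fga, another fibrinogen chain, differed by -6.25, Ambp, the precursor of alpha-1-microglobulin, by -6.23, and the apolipoprotein gene Apoa1 by -5.63. Afp, the fetal plasma protein, had 12.34, 7.82, 7.66 and 7.58 in bone and 14.67, 14.63, 14.67 and 14.65 in liver (difference -5.81 ± 0.75 (SE), limma adjusted p = 0.00092). The control bone array stood more than 4 log2 units above the other bone arrays, although still below every liver array. Alb, the albumin gene, had 13.60, 10.70, 9.44 and 13.60 against 14.98, 14.95, 14.96 and 14.93 (difference -3.12 ± 0.68 (SE), limma adjusted p = 0.0096). Its liver values lay close to the top of the scale of the arrays (15.03), which limits how large a difference can be read there.

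The bone arrays were divided in several of these genes, in another way than for Afp. Fgg, the third fibrinogen chain, had 10.53, 7.22, 6.89 and 10.01 in bone and 14.30, 14.27, 14.28 and 14.23 in liver, and Ahsg, a mineral-binding plasma protein that also accumulates in bone, 11.09, 7.95, 7.88 and 9.84 and 14.41, 14.37, 14.29 and 14.35. Control and retinoic acid bone were high and EMD50 and EMD150 bone low for both genes. The median pair difference of the list was -3.90 in the control pair, -5.59 in EMD50, -4.83 in EMD150 and -3.79 in retinoic acid. The list's median level over bone arrays ranged from 7.45 in EMD50 to 9.01 in retinoic acid, against 13.08 to 13.16 over liver arrays. Whether this follows treatment, dissection or another property of the single samples was not tested.

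The retinoic acid bone array also held genes that are high in maternal liver but low in embryo liver. A1bg, a plasma glycoprotein gene, had 5.65, 5.78, 5.74 and 8.90 in bone, 6.40, 6.29, 6.001 and 6.45 in embryo liver and 14.00 to 14.22 in maternal liver of day 20. Cyp2c7 had 7.05, 7.36, 7.23 and 9.78 and Cyp2c12, a P450 typical of adult female rat liver, 6.54, 6.83, 7.14 and 9.31 in bone, against 6.97, 7.39, 8.46 and 7.32 and 7.25, 7.09, 7.52 and 7.48 in embryo liver. Tdo2, the tryptophan-degrading enzyme of adult liver, had 6.20, 6.24, 6.43 and 7.51 in bone against 6.44, 6.38, 6.02 and 6.17. In these 4 genes, taken from the list exceptions and the widest bone ranges and described after their values were seen, retinoic acid bone was above all embryo liver arrays and the other bone arrays were not. None of the 4 was called between the tissues (differences 0.12 to 0.34). Without the retinoic acid pair, the differences of A1bg, Cyp2c7 and Cyp2c12 were -0.51, -0.39 and -0.45 in place of 0.23, 0.32 and 0.12. Itih4, a plasma protein gene, had 7.26, 6.85, 7.29 and 10.23 in bone against 11.71, 11.95, 11.86 and 11.81 in embryo liver and 14.40 to 14.57 in maternal liver of day 20. Here too retinoic acid bone was the high array, but it stayed below liver.

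**Figure D3:**
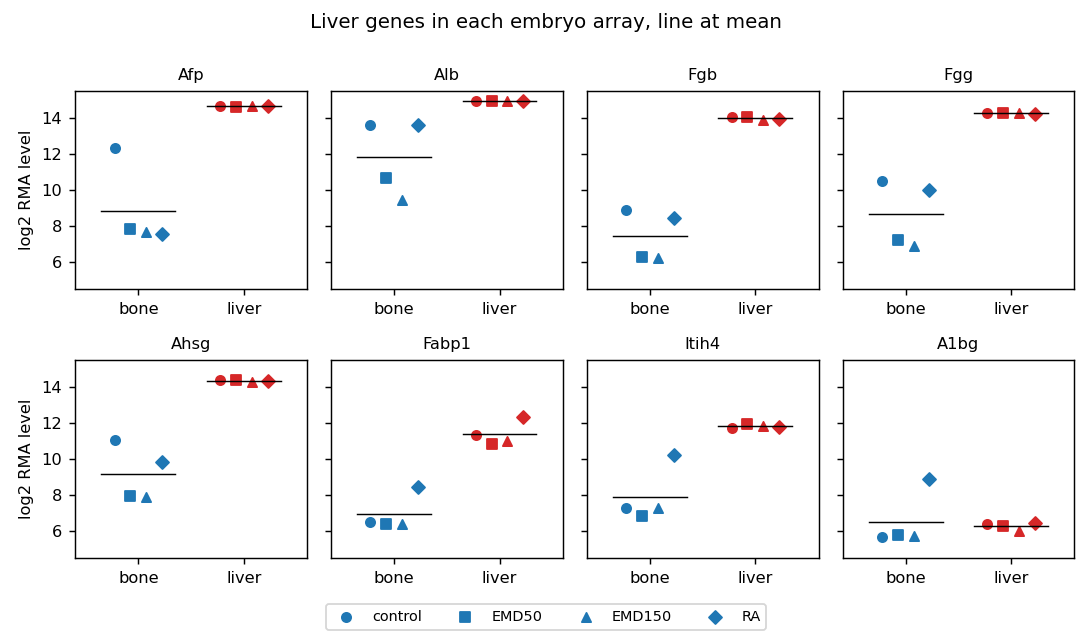
Log2 RMA level of 8 liver genes in the 4 bone arrays (blue) and 4 liver arrays (red), with a symbol for each treatment and a line at the mean of the tissue. Afp is high in the control bone array alone (12.34 against 7.58 to 7.82), Fgb and Fgg in control and retinoic acid bone, and A1bg in retinoic acid bone alone (8.90 against 5.65 to 5.78).

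The promoters of 3 plasma protein genes are shown because they hold the arm GTTAAT of the site of HNF1, a transcription factor known for liver genes. The windows are again the 250 bases before the RefSeq start in build GRCr8, at chr14:17906980-17907229 (minus strand) for Alb, chr14:17875646-17875895 (minus strand) for Afp and chr2:170700876-170701125 (minus strand) for Fgb. Capitals mark the same 3 motifs as above.
Alb: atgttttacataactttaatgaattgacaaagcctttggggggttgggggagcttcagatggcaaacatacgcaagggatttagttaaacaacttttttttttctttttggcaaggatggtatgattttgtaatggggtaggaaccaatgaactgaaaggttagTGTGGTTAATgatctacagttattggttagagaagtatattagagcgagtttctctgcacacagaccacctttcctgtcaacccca
Afp: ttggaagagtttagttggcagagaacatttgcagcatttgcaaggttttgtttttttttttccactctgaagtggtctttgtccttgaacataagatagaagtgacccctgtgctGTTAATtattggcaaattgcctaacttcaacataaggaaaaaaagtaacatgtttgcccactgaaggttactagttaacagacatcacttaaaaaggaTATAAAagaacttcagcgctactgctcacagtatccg
Fgb: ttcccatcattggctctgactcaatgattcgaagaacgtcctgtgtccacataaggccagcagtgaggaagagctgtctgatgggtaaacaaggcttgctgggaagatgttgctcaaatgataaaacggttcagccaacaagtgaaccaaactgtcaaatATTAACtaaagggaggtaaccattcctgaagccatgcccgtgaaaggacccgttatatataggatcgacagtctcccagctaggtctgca
GTTAAT began 82 bases before the start in Alb and 135 in Afp, and lay on the other strand, 90 bases before, in Fgb. In Alb it overlaps a match to the RUNX core on the other strand that begins 86 bases before. Afp also has TATAAA, 37 bases before the start. The promoters of Fgg, Ahsg and Cps1, not printed, held no match to this arm. GTTAAT occurred in 7 of 26 plasma protein promoters (26.9%) and in 5 of 16 promoters of coagulation and complement genes (31.2%), against 6.46% of all promoters in the table. Among the promoters of muscle and red cell genes it occurred in 0 of 38 and 0 of 19.

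Coagulation and complement genes were called lower in bone for 21 of 22 and higher for none (median difference -4.17). F2, the prothrombin gene, had 7.85, 6.41, 6.76 and 7.997 in bone against 13.01, 13.12, 12.79 and 13.10 in liver (difference -5.75, limma adjusted p = 9.9e-06). C3, the central complement protein, had 10.14, 7.32, 7.05 and 10.21 against 14.41, 14.36, 14.10 and 14.35 (difference -5.62, limma adjusted p = 0.0002), again with control and retinoic acid bone above EMD50 and EMD150 bone. Cfi, the protease that inactivates C3, varied much less over bone (7.08, 6.57, 6.93 and 7.35 against 12.70, 12.69, 12.60 and 12.83, difference -5.72, limma adjusted p = 1.5e-06). Proc, the anticoagulant protein C, differed by -5.27.

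Enzymes of amino acid and sugar metabolism were called lower in bone for 26 of 31 and higher for none (median difference -2.66). Cps1, the entry enzyme of the urea cycle, had 7.37, 6.35, 6.36 and 7.71 in bone and 12.68, 12.55, 12.23 and 12.82 in liver (difference -5.63, limma adjusted p = 2.7e-06), and Hpd, of tyrosine breakdown, differed by -5.58. In the liver arrays, EMD150 held the lowest value for 27 of the 31 genes (87.1%, against 45.1% over all genes). That array also had the narrowest spread of values (SD 1.51). The part of the spread in this order was not tested, and the order has no replicate check. Fbp1, an enzyme of glucose synthesis, had 12.18, 11.92, 10.62 and 12.06 in liver and 7.61, 6.83, 7.07 and 7.50 in bone, so that the EMD150 liver array was low yet above every bone array. Bile acid synthesis and transport genes were called lower in bone for 20 of 22 and higher for none (median -1.74), led by the bile acid importer Slc10a1 (5.62, 5.66, 5.82 and 5.85 against 9.05, 8.95, 8.13 and 9.86, difference -3.26, limma adjusted p = 6.7e-05). Cyp7a1, the rate-limiting enzyme of bile acid synthesis, had 8.26, 8.08, 7.69 and 7.23 in bone and 10.27, 10.18, 8.45 and 10.11 in liver, where EMD150 was the low array.

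Drug metabolism genes were called lower in bone for 30 of 39 and higher for 1, with a median difference of -0.60. Over the probe sets above the median level, this median was -2.41. Gsta1, a glutathione transferase, had 6.43, 6.70, 6.32 and 6.91 against 11.51, 11.66, 11.52 and 12.10 (difference -5.11, limma adjusted p = 1.5e-06), and the P450 Cyp2c23 differed by -4.37. The exception was Aldh1a1, a retinal dehydrogenase, with 7.17, 7.55, 6.99 and 7.86 in bone and 7.01, 6.86, 6.65 and 7.02 in liver (difference 0.50, limma adjusted p = 0.019). Without the EMD50 bone array it was no longer called (limma adjusted p = 0.12), nor with all arrays and no treatment block (limma adjusted p = 0.054). Fat oxidation genes were called lower for 18 of 24 and higher for 1 (median -1.08). Fabp1, the fatty acid binding protein of liver, had 6.50, 6.37, 6.41 and 8.46 in bone and 11.32, 10.86, 11.02 and 12.34 in liver (difference -4.45, limma adjusted p = 3.7e-06), with retinoic acid the highest array in both tissues. Sterol and fat synthesis genes were called lower for 17 of 23 and higher for 1 (median -0.70). Fdps, of the cholesterol pathway, differed by -1.77, and Me1, which supplies NADPH for fat synthesis, was the one higher in bone (0.78, limma adjusted p = 0.0018), and a second Me1 probe set was higher in bone by more.

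Liver transcription factors and nuclear receptors were called lower in bone for 18 of 21 and higher for none (median difference -1.09). Onecut1, a factor of liver and bile duct development, had 6.09, 6.31, 6.35 and 6.08 in bone and 9.31, 9.33, 8.13 and 9.60 in liver (difference -2.89, limma adjusted p = 0.00016). The groups did not overlap, and EMD150 was the lowest liver array. A second Onecut1 probe set differed by -1.09. Onecut2, Hhex and Foxa3 differed by -2.66, -2.19 and -2.18, and Hnf4a by -1.52. EMD150 held the lowest liver value for 15 of the 21 genes (71.4%, against 45.1% over all genes). The part of the narrow spread of that array in this order was not tested either.

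**Figure D4:**
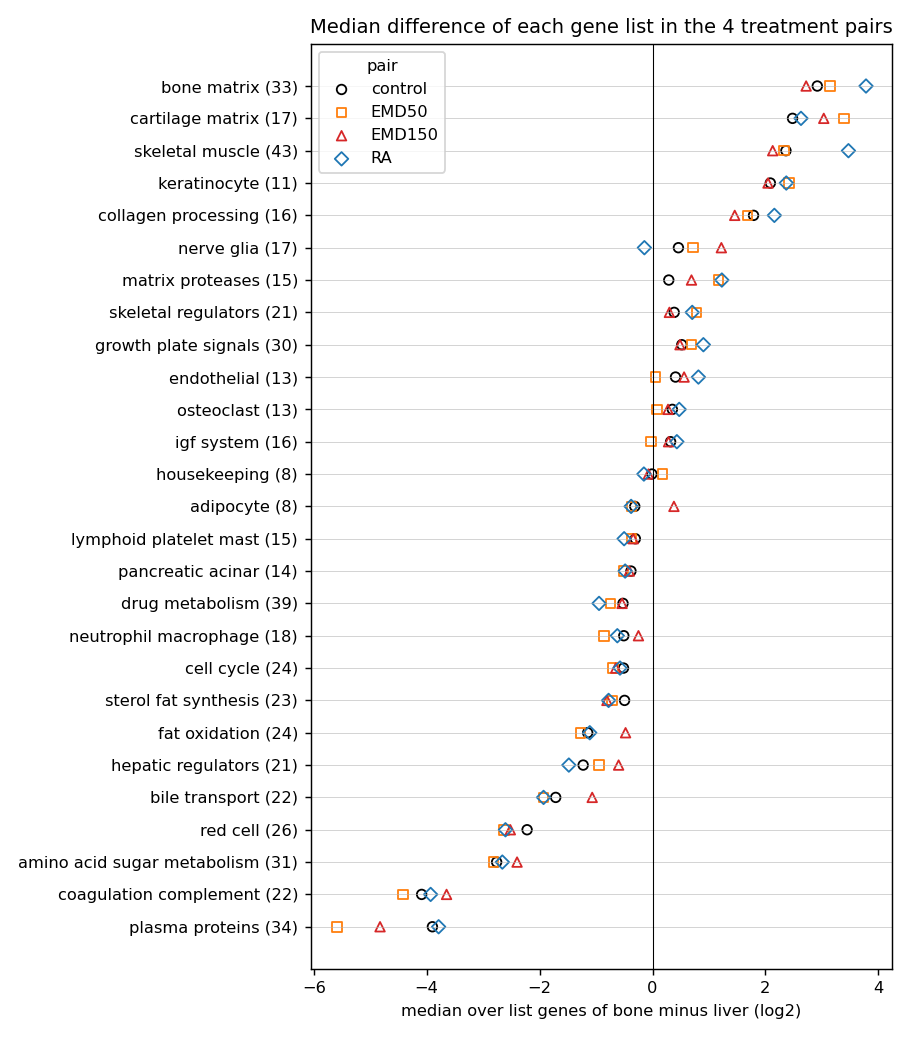
Median bone minus liver difference (log2) over the genes of each of 27 lists, in the control, EMD50, EMD150 and retinoic acid pairs, with the number of measured genes in parentheses. Bone matrix medians run from 2.72 to 3.78 and plasma protein medians from -5.59 to -3.79, and the nerve list alone among those with a median above 0.5 has a pair below 0 (-0.14, retinoic acid).

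Red cell genes were called lower in bone for 23 of 26 and higher for 1, with a median difference of -2.58. Hemgn, a nuclear protein of erythroid precursors, had 6.01, 5.98, 5.83 and 5.63 in bone against 9.77, 9.99, 10.47 and 10.69 in liver (difference -4.37, limma adjusted p = 1.2e-05). Nfe2, a factor of globin gene expression, had 6.11, 5.88, 6.03 and 5.74 against 9.84, 10.05, 9.90 and 10.01 (difference -4.01, limma adjusted p = 2.2e-06). Set beside maternal liver of day 20, bone lay near it for Hemgn (5.54 to 5.71 in maternal liver) and below it for Nfe2 (6.27 to 6.85). Hbb, the adult beta globin that stays in circulating red cells, had 14.83, 14.73, 14.81 and 14.62 in bone and 14.89, 14.91, 14.83 and 14.83 in liver, near the top of the scale in both, and was not called. Sptb, a spectrin chain also found in muscle, was the gene higher in bone (0.34, limma adjusted p = 0.044).

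Genes of granulocytes and macrophages were called lower in bone for 13 of 18 and higher for 1, Cd68 (0.44), with a median difference of -0.63. S100a9, of neutrophil precursors, had 6.29, 6.54, 6.21 and 6.23 in bone against 10.80, 10.67, 10.07 and 11.88 in liver (difference -4.54, limma adjusted p = 2.6e-05). Without the EMD50 bone array and the treatment block, or without the control pair, the genes called fell from 14 to 9. With only the block left out 13 were called, and without the EMD50 pair 11. Outside the list, the neutrophil defensin genes RatNP-3b (5.88, 5.71, 5.58 and 5.48 against 11.35, 11.38, 11.22 and 11.45) and Np4 (6.90, 6.67, 6.93 and 6.71 against 11.99, 12.25, 11.63 and 12.58) differed by -5.69 and -5.31. Hdc, the histamine-forming enzyme, had 8.71, 6.76, 7.05 and 6.80 in bone and 13.71, 13.70, 13.71 and 13.41 in liver (difference -6.31 ± 0.30 (SE), 79.2-fold, limma adjusted p = 1.1e-05), and its control bone value stood above the other bone values. Np4 was singled out after its values were seen. Lymphoid, platelet and mast cell genes were called lower in bone for 9 of 15 and higher for 1, led by the platelet chemokine Pf4 (9.12, 9.08, 9.25 and 8.83 against 11.69, 11.72, 11.22 and 11.75, limma adjusted p = 4e-05).

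Insulin-like growth factors and their binding proteins went both ways, with 7 of 16 called higher in bone and 5 lower. Igfbp1, the binding protein that liver releases, had 7.27, 6.83, 7.37 and 7.10 in bone and 12.22, 12.22, 12.61 and 12.33 in liver (difference -5.20 ± 0.12 (SE), limma adjusted p = 1.5e-06). Igfbp5, the binding protein stored in bone matrix, had 11.96, 11.82, 10.64 and 12.26 against 7.34, 6.83, 7.22 and 7.48 (difference 4.45 ± 0.25 (SE), limma adjusted p = 2e-05). Its other probe sets differed by 2.22, called, and 0.52, not called. Igfbp3 and Igf1 were also higher in bone, by 2.02 and 1.70. Igf2, the main fetal growth factor of the family, had 14.38, 14.15, 14.25 and 14.38 and 14.24, 14.21, 14.07 and 14.20 and was not called (0.11). Of its other 3 probe sets, of lower level, those with differences of -0.36 and -0.31 were called lower in bone and one was not called (-0.20).

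Genes of muscle and skin were also high in the bone arrays. Skeletal muscle genes were called higher in bone for 36 of 43 and lower for none (median difference 2.39). Their median level was 9.79 to 11.07 over bone arrays and 7.36 to 7.68 over liver arrays. Myh3, the embryonic myosin, had 13.38, 13.60, 13.49 and 13.60 in bone and 8.44, 8.83, 8.33 and 8.18 in liver (difference 5.07, limma adjusted p = 1.8e-06), and Myl1 and Ckm, a myosin light chain and the muscle creatine kinase, differed by 5.16 and 4.84. Myh1, a fast adult myosin, had 10.16, 10.92, 10.37 and 11.07 against 10.55, 10.86, 11.20 and 11.40 and was not called. Of its other probe sets, those with differences of -0.77 and -0.52 were called lower in bone, and those with -0.47 and -0.30 were not called. Skin genes of keratinocytes were called higher for 10 of 11 (median 2.34, list level 10.27 to 10.73 in bone and 7.88 to 8.28 in liver). Krt10, of the upper epidermis, had 11.97, 13.10, 12.68 and 11.13 in bone and 8.37, 6.35, 7.31 and 7.54 in liver (difference 4.83, limma adjusted p = 0.00032). The part of muscle and skin in the differences of the skeletal lists was not tested.

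Genes of the eye lens were among the largest differences. Cryba1, a beta crystallin, had 12.52, 12.90, 12.04 and 12.72 in bone and 6.17, 6.13, 6.90 and 6.15 in liver (difference 6.21 ± 0.26 (SE), 74-fold, limma adjusted p = 6.4e-06). Cryga, a gamma crystallin of lens fibre cells, had 12.003, 11.61, 11.68 and 10.82 against 6.19, 5.999, 6.17 and 6.09 (difference 5.41, limma adjusted p = 2.7e-06). Cryaa, the lens chaperone alpha A crystallin, had 12.59, 11.78, 12.57 and 12.65 against 8.31, 8.36, 8.65 and 8.30 (difference 3.99, limma adjusted p = 7.9e-06). All 4 bone arrays were high for each of them, while whole embryo of day 12 had 5.99 to 6.16 for Cryba1 and 5.63 to 5.76 for Cryga. Of 14 crystallin genes, a set put together after these values were seen, 12 were called higher in bone and 1 (Crygs) lower. The share is a description of a chosen set, beside 23% of all genes. A second added set, of lens membrane genes, differed much less. Of its 3 genes, 2 were called higher in bone and none lower. Their median difference was 0.53, and none reached 2-fold.

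Genes of developing teeth were high in bone as well, also picked after their values were seen. Ambn, the enamel protein ameloblastin, had 10.87, 9.93, 9.18 and 11.40 in bone and 7.41, 7.33, 7.40 and 7.23 in liver (difference 3.002, limma adjusted p = 0.00054). Amelx, the enamel protein amelogenin, had 9.29, 8.14, 7.23 and 9.97 against 6.03, 6.04, 5.95 and 5.96 (difference 2.66, limma adjusted p = 0.0018). Its other probe sets differed by 1.74, 1.31 and 2.87, and all were called higher in bone. In Ambn and Amelx, control and retinoic acid bone were the high arrays and EMD150 the lowest. The enamel set held 3 genes, all called higher in bone, with a lowest difference of 0.52. Csap1, a gene of the salivary glands, had 10.41, 8.06, 9.82 and 6.75 against 6.23, 6.44, 6.54 and 6.21 (difference 2.40, limma adjusted p = 0.01), with control and EMD150 high, an order unlike that of the enamel genes. Without the EMD150 pair Csap1 was not called (limma adjusted p = 0.053). Of 3 salivary genes chosen after their values were seen, Csap1 was called and the other 2 were not. Among 4 photoreceptor genes, chosen in the same way, none was called higher in bone and 3 were lower, with differences from -0.56 to -0.16. The share of lens, tooth or gland tissue in the bone samples was not measured, and its part in the other differences was not tested.

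**Figure D5:**
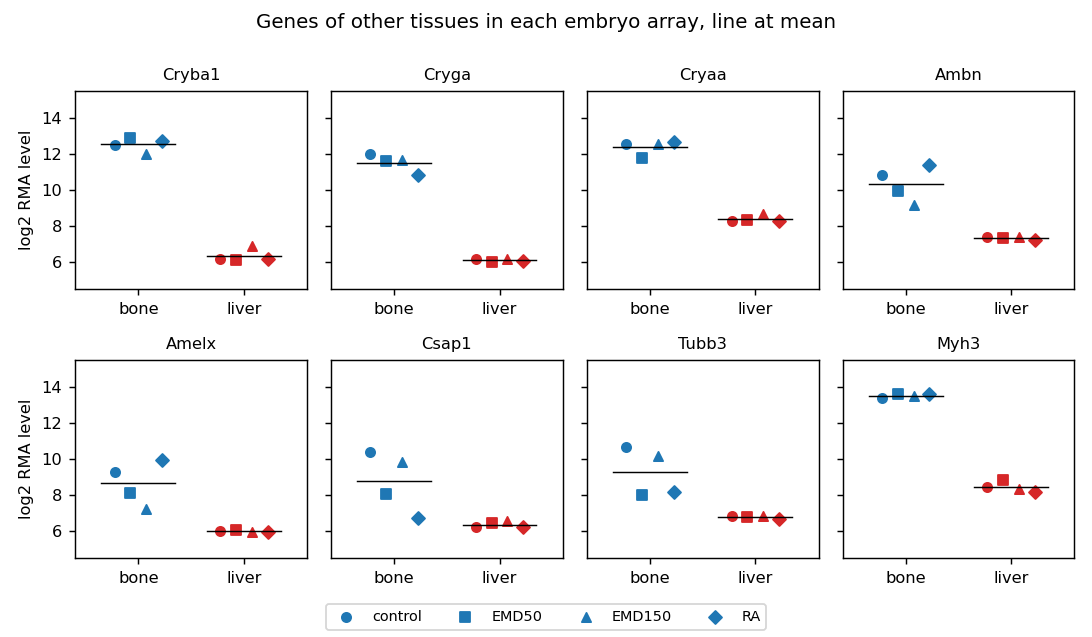
Log2 RMA level of 3 lens genes (Cryba1, Cryga, Cryaa), 2 enamel genes (Ambn, Amelx), a salivary gene (Csap1), a neuronal gene (Tubb3) and a muscle gene (Myh3) in the 4 bone arrays (blue) and 4 liver arrays (red), with a symbol for each treatment and a line at the mean. The lens and muscle genes are high in all 4 bone arrays (Cryba1 12.04 to 12.90), while Amelx ranges from 7.23 to 9.97 and Csap1 from 6.75 to 10.41.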

How the data were processed

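RNA of 8 samples, 4 of embryo bone and 4 of embryo liver at day 20, was measured on single-colour arrays of biotin-labelled cRNA, 1 array each, from RNeasy-purified total RNA, per the labels' protocols. The authors deposited log2 probe set values from RMA, per the submitters' processing notes. Neither joint processing of the arrays nor pooling of RNA is stated.

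Of 15923 rows, 57 array controls were left out and 15866 probe sets were tested without a filter. Symbols came from the probe table, where 12783 probe sets had 1 symbol, 312 several and 2771 none. A gene was represented by its probe set of highest mean. Names and promoters came from RefSeq tables (GRCr8). The number of arrays limits the precision.

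The model in limma 3.58.1 (R 4.3.3) had tissue and treatment as terms, with 3 residual degrees of freedom and an intensity trend in eBayes. Two-sided p-values were adjusted after Benjamini and Hochberg across the 15866 probe sets, and a call needed an adjusted p under 0.05. Residuals thus hold any difference in treatment effect between tissues. Deviations from the tissue means correlated by 0.25, -0.10, 0.36 and 0.42 within the control, EMD50, EMD150 and retinoic acid pairs, and by -0.52 to 0.28 between other bone and liver arrays.

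In 27 lists, 574 of 751 entries were measured. The members and lists were chosen with earlier results of these data known. Named genes were up to 15 per direction with the largest difference among calls of 1 sign in all pairs, up to 4 per list and its exceptions, and 10 with the widest range in each tissue. Other genes of the lists were added to illustrate roles, after their values were seen. On simulated bone minus liver data, with 500 changed of 15866 probe sets, 78.4% of changes of 1 log2 unit and 98.6% of 2 were recovered, and 2% of 0.5. The real data held far more calls (7013), so these recovery rates do not carry over to them. Alternatives covered the block, the arrays fitted, each pair left out, scaling, a level filter and the trend.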

Additional observations from a re-analysis of the deposited data

Results flagged for a closer look

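In groups of 4 arrays, a value counts as standing apart here when its gap to the nearest other value exceeds Dixon's 95% limit for 4 values, as a share of the range of the group. Of 250 groups checked, 25 met it, where about 5% is the nominal rate. The groups include genes picked for a wide range or after their values were seen. The count therefore cannot be compared with that rate. Since each treatment has 1 array per tissue, a value that stands apart has no replicate check.

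In bone, the control array stood above the others for the liver and blood genes Afp (12.34 against 7.58 to 7.82) and Hdc (8.71 against 6.76 to 7.05). For Rgn it also met the rule, but only by a small step at a low level (5.74 against 5.58 to 5.59). The retinoic acid array stood above the others for the liver genes A1bg (8.90 against 5.65 to 5.78), Cyp2c7 (9.78 against 7.05 to 7.36), Itih4 (10.23 against 6.85 to 7.29) and Fabp1 (8.46 against 6.37 to 6.50), and below them for Cela1 (7.21 against 7.67 to 7.73). The EMD50 array stood above the others for Igfbp3 (12.45 against 11.55 to 11.70) and for the median level of the skeletal transcription factors (8.03 against 7.61 to 7.65), and below them for Cryaa (11.78 against 12.57 to 12.65). It also had the high difference between the 3′ and 5′ control probe sets of Gapdh (2.72 against 0.69 to 0.77).

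In liver, 10 of the 13 values were from the EMD150 array. It was the lowest for Proc (10.69 against 11.25 to 11.32), Hpd (11.93 against 12.43 to 12.50) and Pf4 (11.22 against 11.69 to 11.75), and for the median levels of the coagulation and complement list (10.75 against 11.15 to 11.22) and the liver transcription factors (8.22 against 8.84 to 8.88). It was the highest for genes of low liver level, namely Bglap (6.85 against 6.41 to 6.44), Prrx2 (6.82 against 6.19 to 6.28), Sost (6.68 against 6.04 to 6.09), Cryba1 (6.90 against 6.13 to 6.17) and Cryaa (8.65 against 8.30 to 8.36). The same array had the narrowest spread of all 8, with an SD of 1.51. The retinoic acid liver array was lowest for Hdc (13.41 against 13.70 to 13.71) and for the median level of the growth plate signals (7.72 against 7.81 to 7.82), and highest for Mki67 (11.44 against 10.56 to 10.68).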

How the results depend on the processing

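The number of called probe sets, 7013, was 2971 with the control and retinoic acid pairs left out (1882 higher and 1089 lower in bone). It was 4616 (control) to 6520 (EMD150) with 1 treatment pair left out. In a fit of the brighter probe sets alone, 3877 were called (1599 lower), against 3773 of the same probe sets in the main fit. The number lower in bone, 3603, was 1971 to 3564 in the same fits, with 1971 without the control pair and 2303 without the retinoic acid pair. Without the treatment block, 5937 probe sets were called in all. No probe set called in both fits changed sign under any alternative. With the probe sets above the median level, the cartilage matrix median was 3.29 and the amino acid and sugar median -3.49, and with every probe set of a gene the cartilage median was 2.35, against 2.86, -2.66 and 2.86. Among other lists, the level filter moved the medians of the skeletal transcription factors, osteoclast, nerve and pancreatic genes to 1.14, 0.49, 1.66 and -0.97. Those of the growth plate, muscle, keratinocyte and adipocyte lists moved to 0.92, 3.39, 2.65 and -0.64. With every probe set of a gene, the collagen processing median was 1.48 against 1.78. With control and retinoic acid left out, calls fell from 19 to 12 in growth plate signals, 6 to 3 in osteoclast, 13 to 8 in protease, 14 to 6 in granulocyte and macrophage, 10 to 3 in lymphoid and platelet, 7 to 3 in endothelial, 11 to 5 in pancreatic, 18 to 10 in liver regulator, 31 to 17 in drug, 19 to 12 in fat oxidation, 18 to 10 in sterol and 21 to 10 in cell cycle genes. The cause was not tested, except that leaving out pairs leaves fewer arrays and the level filter fewer probe sets.

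Signs turned for 5 genes that were not called and for the housekeeping median. With 1 pair left out, Sost ran from -0.23 to 0.085, A1bg from -0.51 to 0.56, Cyp2c7 from -0.39 to 0.84, Cyp2c12 from -0.45 to 0.40 and the housekeeping median from -0.15 to 0.078. Sost turned without EMD150, the median without EMD50, and the other 3 without retinoic acid. Without control and retinoic acid, A1bg, Cyp2c7 and Cyp2c12 were -0.39, -0.63 and -0.32. Hbb was 0.012 after quantile normalisation. The housekeeping median, 0.011, was -0.093 without the EMD50 bone array, -0.028 with centred arrays and -0.092 with quantiles.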

Other observations

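Cell cycle genes were called lower in bone for 19 of 24 and higher for 2 (median difference -0.66). Mki67, a marker of dividing cells, had 8.73, 9.56, 8.64 and 9.41 in bone and 10.56, 10.68, 10.56 and 11.44 in liver (difference -1.72, limma adjusted p = 0.00024). The 2 higher in bone were the cyclins of early G1, Ccnd1 (10.81, 10.47, 10.37 and 10.47 against 8.80, 8.83, 8.46 and 8.91, limma adjusted p = 5.4e-05) and Ccnd2 (difference 1.51). Endothelial genes were called higher in bone for 7 of 13 (median 0.42), with Cldn5, a tight junction gene of vessels, at 9.22, 9.75, 9.27 and 9.12 against 7.27, 7.11, 7.33 and 7.04 (limma adjusted p = 4.5e-05).

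Nerve and glia genes were called higher in bone for 7 of 17 and lower for 2 (median 0.84). Without the EMD50 bone array and the treatment block, the median was 0.45 and 6 were called in place of 9. With only the block left out 8 were called, and without the EMD50 pair also 8. Tubb3, the neuronal tubulin, had 10.69, 8.03, 10.17 and 8.15 in bone and 6.82, 6.80, 6.82 and 6.70 in liver (limma adjusted p = 0.0039), and Nefl, a neurofilament gene, 6.94, 9.13, 8.31 and 6.06 and 6.54, 6.69, 6.59 and 6.26 (limma adjusted p = 0.058). A second Tubb3 probe set was called lower in bone (-0.34, limma adjusted p = 0.017). The EMD50 bone array was low for Tubb3 and the highest for Nefl. Pancreatic enzyme genes were called lower in bone for 11 of 14 with small differences (median -0.46), of which Cela1 had the largest (-1.32, limma adjusted p = 0.0037). With all 22 arrays in the fit, 2 of the 14 were called. Of 8 adipocyte genes, 1 was called higher and 3 lower. In all, 2 were called without the control pair and 3 without the EMD50 pair. Without the treatment block 1 was called, and 2 without both the block and the EMD50 bone array. Of 8 housekeeping genes, 2 were called higher and 2 lower. Of 8 measured Hox genes, picked after their values were seen, 1 was called higher in bone (Hoxd8, 0.48) and 2 lower.

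Xist, the RNA of the inactive X chromosome, had 9.96, 11.30, 6.003 and 11.71 in bone and 8.86, 9.63, 6.64 and 11.41 in liver. In both tissues EMD150 was the lowest array and retinoic acid the highest.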
